A study of Zea mays with 12 samples.

Results

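The bract of a maize ear is a leaf that normally stops growing soon after it forms, and the *tasselsheath* genes *tsh1* and *tsh4* are needed for that arrest. The data describe 4 genes of the *TEOSINTE BRANCHED1*, *CYCLOIDEA* and *PCF* (*TCP*) family in bract primordia that had lost either or both of these genes. The 4 genes are those that the study placed in the class I and class II branches of the family: *ZmTCP7* (GRMZM2G078077) and *ZmTCP8* (GRMZM2G003944) of class I, and *ZmTCP2* (GRMZM2G115516) and *ZmTCP5* (GRMZM2G166946) of class II. They are 4 of the 20168 genes in the deposited expression table. The study named them as up-regulated on the same libraries, so the values of the mutants set against B73 below are a description of that choice in numbers and not independent evidence of its direction. The comparisons among the mutants and the interaction use libraries on which the genes were chosen, the interaction those of B73 as well, so they are not independent of that choice either.

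Bract primordia were cut by laser microdissection from sections of young ears, taken at the uppermost nodes, before a meristem could be seen next to the bract. There were 4 genotypes with 3 biological replicates each: the inbred line B73 as wild type, *tsh1*, *tsh4* and the *tsh1 tsh4* double mutant. The *tsh1-ref* allele carries a transposon insertion with a large deletion, the *tsh4-rm* allele a transposon insertion in an intron, and both had been crossed repeatedly into B73. All plants grew in a greenhouse without further treatment, and the RNA of every library was amplified in vitro before sequencing. The sources do not say how many plants went into a library.

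TCP proteins are transcription factors of plants that bind DNA through a conserved domain with a basic helix-loop-helix fold, the TCP domain. Class I proteins have been linked to cell division: in rice, PCF proteins bind the promoter of a gene for proliferating cell nuclear antigen (PCNA), the clamp that holds DNA polymerase on its template. Class II proteins of the CIN type act in leaf development. In Arabidopsis they promote the change from dividing to differentiating cells in leaves, act together with NGATHA (NGA) transcription factors and lower the expression of *CUC* boundary genes, and several are targets of a microRNA.

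The names of maize *TCP* genes differ between sources, and the identifiers decide here. The NCBI reference annotation lists GRMZM2G115516, the study's *ZmTCP2*, as TCP5 and GRMZM2G166946, the study's *ZmTCP5*, as TCP30. Its TCP8 is another gene, GRMZM2G092214. It holds GRMZM2G078077 without a *TCP* name, and GRMZM2G003944 was not matched, so 3 of the 4 genes had an entry.

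The libraries held between 49481413 and 110703826 reads assigned to genes. Levels are normalized read counts scaled to a common library size (CPM), and 3 reads correspond to between 0.0265 and 0.0651 CPM. CPM are not divided by transcript length, so levels are compared between libraries and not between genes. The genes *tsh1* and *tsh4* themselves are not paired with identifiers in the sources used here, and the labels were not checked here against their transcripts. The study itself reported each of the transcripts as significantly lower in its own mutant in these libraries. It also reported genes next to *tsh1* that had no transcripts in *tsh1-ref*, where the deletion lies. The bract marker *zyb15*, a *YABBY* gene, was present at 1030 to 1800 CPM across the 12 libraries. Markers of neighbouring tissue were present as well. Of 3 class I *KNOX* genes of the meristem (*kn1*, *lg3* and *gnarley1*), the summed level ran from 425 to 555 CPM in B73, 318 to 506 for *tsh1*, 200 to 281 for *tsh4* and 222 to 421 for the double mutant. Of 3 genes of the boundary beside the meristem (*ba1*, *baf1* and *ZmCUC3*), it ran from 372 to 465 CPM in B73, 290 to 353 for *tsh1*, 183 to 253 for *tsh4* and 151 to 229 for the double mutant. None of these defining markers was at 0. The study reported significantly more *zyb15* and less *kn1* in these bracts than in microdissected shoot apical meristem. It held it possible that neighbouring cells with *ba1* and *baf1* were captured by accident, and did not say this of *ZmCUC3*.

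All 4 *TCP* genes were lowest on average in B73, higher in *tsh1*, higher again in *tsh4* and highest in *tsh1 tsh4*. Of all genes in the table, 6.14% had their 4 means in this order. In bulk tissue a larger number of cells that express a gene and more of its RNA in each cell cannot be told apart.

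*ZmTCP7*, of class I, was measured at 3.38, 3.33 and 2.71 CPM in the B73 libraries and at 6.73, 5.67 and 5.21 CPM in *tsh1*. It was at 12.1, 11.5 and 14.8 CPM in *tsh4* and at 22.4, 10.3 and 14.6 CPM in *tsh1 tsh4*. The ranges of B73, *tsh1* and *tsh4* did not touch, whereas the double mutant spread on both sides of *tsh4*. The B73 mean was 3.14 ± 0.376 CPM (SD, n = 3), against 5.87 ± 0.783 for *tsh1*, 12.8 ± 1.75 for *tsh4* and 15.7 ± 6.15 for the double mutant, which are 1.87, 4.09 and 5.02 times the B73 mean in the mutants. Between 158 and 1786 reads lay behind each value, and the coefficient of variation in *tsh1 tsh4* was 39.0% where counting alone would give 3.31%.

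*ZmTCP8*, the other class I gene, stood at 1.27, 0.775 and 0.497 CPM in B73 and at 1.1, 1.43 and 1.11 CPM in *tsh1*. It stood at 2.83, 2.37 and 3.03 CPM in *tsh4* and at 4.67, 2.95 and 3.29 CPM in *tsh1 tsh4*. The libraries fell into a low set, B73 and *tsh1*, whose ranges overlapped, and a high set, *tsh4* and *tsh1 tsh4*, whose ranges also overlapped. The means were 0.848 ± 0.392 CPM (SD, n = 3), 1.21 ± 0.189, 2.74 ± 0.339 and 3.64 ± 0.906 in the order B73, *tsh1*, *tsh4* and *tsh1 tsh4*, and 29 to 372 reads lay behind each value.

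*ZmTCP2*, of the CIN type in class II, was measured at 1.63, 2.06 and 1.42 CPM in B73 and at 2.83, 2.86 and 4.73 CPM in *tsh1*. It was at 4.33, 5.90 and 5.45 CPM in *tsh4* and at 7.96, 6.51 and 8.07 CPM in *tsh1 tsh4*. Of the 4 genes it alone had all 3 double-mutant libraries above all 3 *tsh4* libraries. The highest *tsh1* library reached into the range of *tsh4*. It averaged 1.71 ± 0.326 CPM (SD, n = 3) in B73, 3.47 ± 1.09 CPM for *tsh1*, 5.22 ± 0.805 CPM for *tsh4* and 7.51 ± 0.873 CPM for the double mutant, with 83 to 635 reads behind each value.

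*ZmTCP5*, the other class II gene, was close to the limit of detection in B73, at 0.097, 0.141 and 0.240 CPM, which were 11, 8 and 14 reads. In *tsh1* it was measured at 0.616, 1.34 and 0.195 CPM, and the lowest of these, from 9 reads, has a counting interval (exact Poisson, 95%) of 0.0892 to 0.370 CPM that holds the B73 values. In *tsh4* it was at 0.885, 1.48 and 2.05 CPM and in *tsh1 tsh4* at 2.52, 1.52 and 2.43 CPM. All libraries of *tsh4* and *tsh1 tsh4* were thus above all of B73, while *tsh1* held 2 libraries above B73 and 1 among them. Its B73 libraries averaged 0.159 ± 0.0732 CPM (SD, n = 3), those of *tsh1* 0.718 ± 0.581 CPM, those of *tsh4* 1.47 ± 0.583 CPM and those of the double mutant 2.16 ± 0.556 CPM. The study kept genes above 0.25 CPM in at least 3 libraries, so *ZmTCP5*, below that level in every B73 library, entered the table only through the mutants, where it had to be higher. Such intervals cover counting error only, since the amplified reads are not independent molecules.

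**Figure D1:**
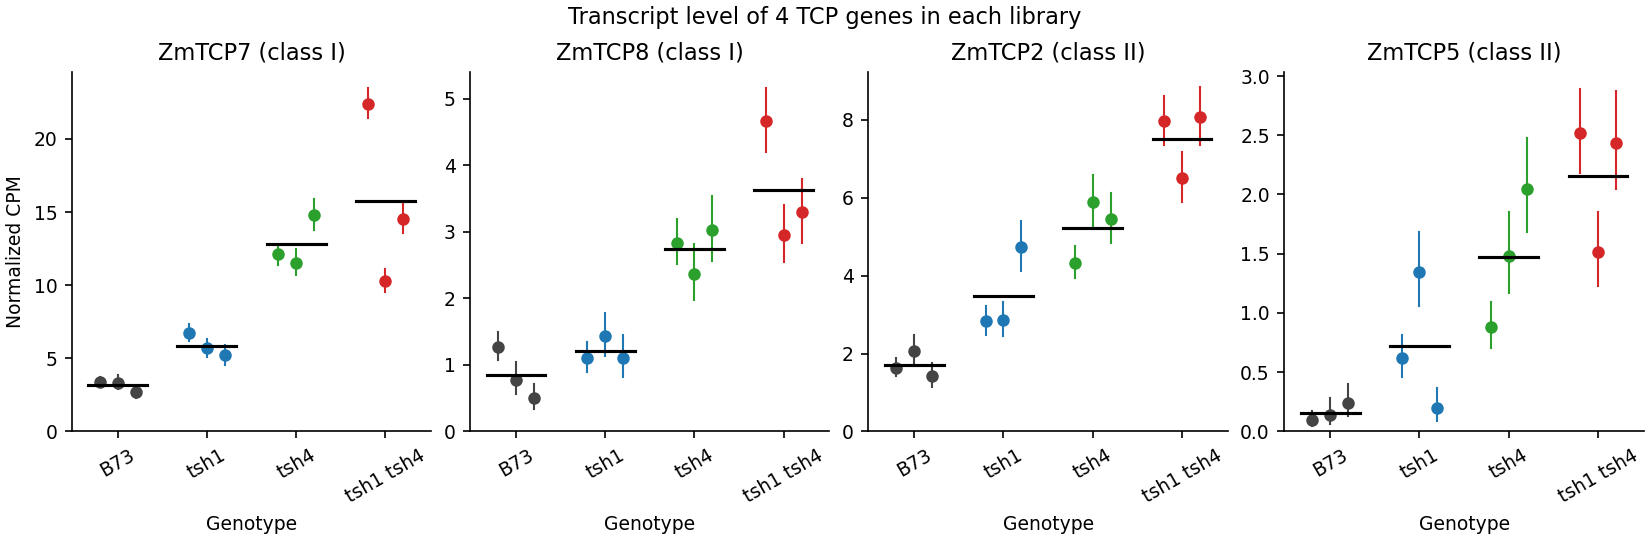
Transcript level of *ZmTCP7*, *ZmTCP8*, *ZmTCP2* and *ZmTCP5* in each library, as normalized CPM on a linear axis from 0, for B73, *tsh1*, *tsh4* and *tsh1 tsh4*. Each point is a library with its exact Poisson 95% counting interval and the black line is the mean of 3 libraries; *ZmTCP7* rises from 3.14 CPM in B73 to 15.7 CPM in *tsh1 tsh4* on average, and the *tsh1* libraries of *ZmTCP5* spread from 0.195 to 1.34 CPM.

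The libraries of a genotype did not rank alike for all 4 genes. Replicate 2 of *tsh1 tsh4* was the lowest of its group for all 4. Replicate 1 of that group was the highest for *ZmTCP7*, *ZmTCP8* and *ZmTCP5*, and replicate 3 for *ZmTCP2*. Replicate 3 of *tsh1* was the lowest of its group for *ZmTCP5* and the highest for *ZmTCP2*, so that the ratio of *ZmTCP2* to *ZmTCP5* CPM was 24.2 in that library and 4.59 and 2.13 in the other *tsh1* libraries. That ratio averaged 12.5 ± 5.77 (SD, n = 3) in B73, 3.84 ± 1.12 in *tsh4* and 3.59 ± 0.614 in *tsh1 tsh4*. The ratio of the class I genes, *ZmTCP7* to *ZmTCP8*, stayed between 2.66 and 6.12 in all 12 libraries and averaged 4.13 ± 1.40 for B73, 4.93 ± 1.1 for *tsh1*, 4.69 ± 0.351 for *tsh4* and 4.23 ± 0.68 for the double mutant. These ratios compare libraries, and their absolute size has no meaning because CPM ignore transcript length.

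The first question of the design is what the *tsh1* mutation did without that of *tsh4*. As the study found genes next to *tsh1* without transcripts in *tsh1-ref*, loss of *tsh1* here and below comes with loss of those transcripts. None of the 4 genes passed the test in *tsh1* against B73, which required an adjusted p of at most 0.05 over all genes and a log2 fold change of at least 1 (limma with Benjamini-Hochberg adjustment, on log2(CPM + 0.1)). On that scale *ZmTCP2* differed by 0.96 (SE 0.24, adjusted p = 0.0586), *ZmTCP7* by 0.88 (SE 0.24, adjusted p = 0.0952), *ZmTCP5* by 1.41 (SE 0.46, adjusted p = 0.206) and *ZmTCP8* by 0.54 (SE 0.29, adjusted p = 0.643). The 95% intervals of *ZmTCP7*, *ZmTCP2* and *ZmTCP5* lay above 0, and that of *ZmTCP8* ran from −0.08 to 1.16. In the same comparison 0.441% of all genes were called higher. Before adjustment 3 of the 4 had a limma p under 0.05, as did 9.3% of all genes, and DESeq2 called 2 of them, *ZmTCP2* at a log2 fold change of 1.03 and *ZmTCP5* at 2.22. Without replicate 3 of *tsh1*, limma called *ZmTCP5* as well (2.01, adjusted p = 0.0289). In *ZmTCP7* and *ZmTCP2* every *tsh1* library was above every B73 library, as it was in 5.75% of all genes, and for 3 libraries against 3 an exact two-sided permutation test cannot give a p below 0.1.

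All 4 genes were called higher in *tsh4* than in B73. *ZmTCP5* rose by 2.57 on the log2(CPM + 0.1) scale (SE 0.46, adjusted p = 0.00249, limma) and *ZmTCP7* by 2.00 (SE 0.24, adjusted p = 6.84e-05). *ZmTCP8* rose by 1.66 (SE 0.29, adjusted p = 0.00203) and *ZmTCP2* by 1.56 (SE 0.24, adjusted p = 0.000589). In *tsh4* against B73, 2.04% of all genes were called higher and 1.77% lower. Each of the 4 genes had every *tsh4* library above every B73 library, as did 11.7% of all genes. All 4 calls held in each of the 21 alternative analyses. As the genes had been named as up-regulated in these libraries, the count of 4 of 4 restates that choice.

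All 4 genes were also called higher in the double mutant than in B73, with the same B73 libraries as control. *ZmTCP5* rose by 3.12 (SE 0.46, adjusted p = 0.000253, limma), *ZmTCP7* by 2.22 (SE 0.24, adjusted p = 1.18e-05), *ZmTCP2* by 2.08 (SE 0.24, adjusted p = 1.99e-05) and *ZmTCP8* by 2.04 (SE 0.29, adjusted p = 0.000188). Of all genes 2.69% were called higher and 3.15% lower, and 10.4% had every double-mutant library above every B73 library, as all 4 *TCP* genes did. In means of CPM, the double mutant had 13.5 times the B73 level of *ZmTCP5*, 5.02 times that of *ZmTCP7*, 4.41 times that of *ZmTCP2* and 4.29 times that of *ZmTCP8*. The B73 level of *ZmTCP5* rests on 8 to 14 reads a library, and its ratio is the least certain of these.

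Set among all 20168 genes and ordered from the largest rise, the 4 genes lay in places 48 to 230 in *tsh4* against B73, 51 to 191 in *tsh1 tsh4* and 87 to 694 in *tsh1*. *ZmTCP5* lay at places 87, 48 and 51 in *tsh1*, *tsh4* and *tsh1 tsh4*, but its order among the 4 depended on the pseudocount. With a pseudocount of 1 its log2 fold changes in the 3 mutants were 0.52, 1.07 and 1.43, below those of *ZmTCP7* at 0.73, 1.74 and 1.96. The 4 genes had a median log2 fold change of 0.92 in *tsh1*, 1.83 for *tsh4* and 2.16 for the double mutant, while the medians over all genes were within 0.01 of 0.

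**Figure D2:**
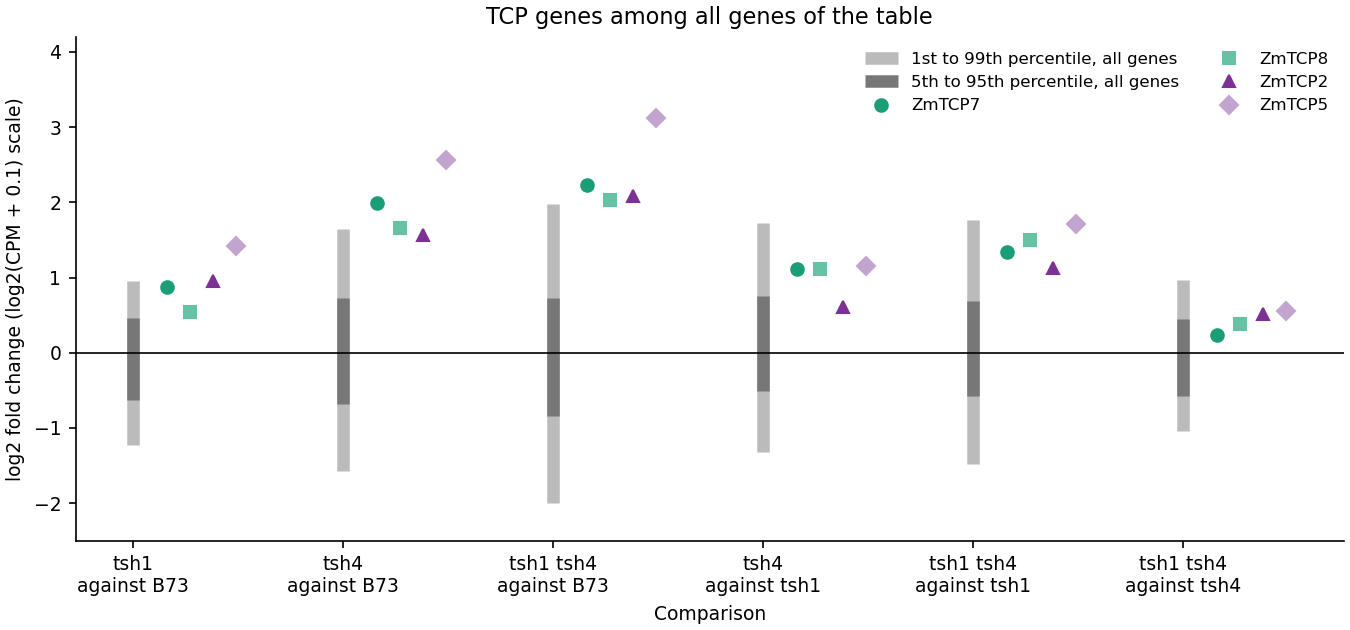
Log2 fold changes on the log2(CPM + 0.1) scale of the 4 *TCP* genes beside those of all 20168 genes, for 6 comparisons. The dark bars span the 5th to 95th and the pale bars the 1st to 99th percentile of all genes; in *tsh1 tsh4* against B73 all 4 genes lie above the 99th percentile, which is 1.98, and in *tsh1 tsh4* against *tsh4* none does.

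The direct comparison of the single mutants asks whether loss of *tsh4* went with higher *TCP* transcript levels than loss of *tsh1*. Both class I genes were called higher in *tsh4* than in *tsh1*: *ZmTCP7* by 1.11 (SE 0.24, adjusted p = 0.0117, limma) and *ZmTCP8* by 1.12 (SE 0.29, adjusted p = 0.0389). The class II genes did not pass the test, at 0.60 for *ZmTCP2* (95% interval 0.10 to 1.11, adjusted p = 0.267) and 1.15 for *ZmTCP5* (0.17 to 2.13, adjusted p = 0.290). In this comparison 2.25% of all genes were called higher, and 8.52% had every *tsh4* library above every *tsh1* library, as both class I genes did. That class I and class II differ in this respect was not tested, and the intervals of all 4 genes overlap. The call on *ZmTCP8* was lost when any *tsh4* library, replicate 1 or 3 of *tsh1*, replicate 2 of B73 or replicate 3 of *tsh1 tsh4* was left out (adjusted p between 0.0552 and 0.165). The call on *ZmTCP7* was lost without replicate 3 of *tsh1* or of *tsh4* (adjusted p = 0.0625 and 0.0760), and *ZmTCP5* was called at 1.70 without replicate 2 of *tsh1* (adjusted p = 0.0323).

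Loss of *tsh4* in plants that already lacked *tsh1* was compared next. All 4 genes were called higher in *tsh1 tsh4* than in *tsh1*, beside 2.1% of all genes. *ZmTCP8* rose by 1.49 (SE 0.29, adjusted p = 0.00500, limma), *ZmTCP7* by 1.34 (SE 0.24, adjusted p = 0.00235), *ZmTCP2* by 1.13 (SE 0.24, adjusted p = 0.00884) and *ZmTCP5* by 1.71 (SE 0.46, adjusted p = 0.0455). All 3 double-mutant libraries were above all 3 *tsh1* libraries for each gene, as in 6.18% of all genes. The call on *ZmTCP5* lay near the threshold and was lost in 9 of 12 analyses that left out a library, at adjusted p values up to 0.241, the last without replicate 3 of *tsh1*. It was also lost in 7 of the 9 other alternatives: the replicate block (adjusted p = 0.1), edgeR on the recovered reads (0.119), a fit of the compared genotypes alone (0.0806), a pseudocount of 0.01 (0.0692), a minimum mean of 1 CPM (0.0658), no trend (0.0629) and a pseudocount of 1, where the log2 fold change was 0.92.

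Loss of *tsh1* in plants that already lacked *tsh4* gave no call. The study reports that the *tsh1* transcript is itself strongly reduced in *tsh4* mutants, with some residual expression. This comparison thus sets a lowered *tsh1* level, not a full one, against its loss. *ZmTCP2* had the lowest p of the 4, with a difference of 0.52 (95% interval 0.02 to 1.02, adjusted p = 0.707 by limma, 0.0435 before adjustment), and in it all double-mutant libraries were above those of *tsh4*, as in 4.35% of all genes. *ZmTCP5* differed by 0.56 (−0.42 to 1.54), *ZmTCP8* by 0.38 (−0.24 to 0.99) and *ZmTCP7* by 0.23 (−0.28 to 0.74), each with an adjusted p of 0.965. In *tsh1 tsh4* against *tsh4*, 0.352% of all genes were called higher. DESeq2 and edgeR called none of the 4 either. The intervals hold values from near 0 or below up to a further rise of about 1 on the log2 scale for *ZmTCP2* and *ZmTCP8*, so a p above the threshold does not show that the levels are equal. Without replicate 1 of *tsh1 tsh4* the difference of *ZmTCP7* was −0.06.

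If the mutations acted independently on the log2 scale, the difference of the double mutant from B73 would equal the sum of the single mutants' differences. By the study's account *tsh1* is already reduced in the *tsh4* mutant, so the single mutants are not fully separate losses. The sums were 3.98 for *ZmTCP5*, 2.88 for *ZmTCP7*, 2.52 for *ZmTCP2* and 2.20 for *ZmTCP8*, each above the difference measured in the double mutant. The shortfall, which is the interaction term, was −0.85 for *ZmTCP5* (95% interval −2.24 to 0.53), −0.65 for *ZmTCP7* (−1.37 to 0.07), −0.44 for *ZmTCP2* (−1.15 to 0.27) and −0.17 for *ZmTCP8* (−1.04 to 0.71). None passed the test (adjusted p = 1.0 for each, limma), none had an unadjusted p under 0.05, and neither DESeq2 nor edgeR called any. Over all genes 0.288% had an interaction at an adjusted p of at most 0.05. The intervals hold 0 as well as negative values, and for *ZmTCP8* the sign turned when replicate 3 of B73 was left out (0.13) or with a pseudocount of 1 (0.02).

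**Figure D3:**
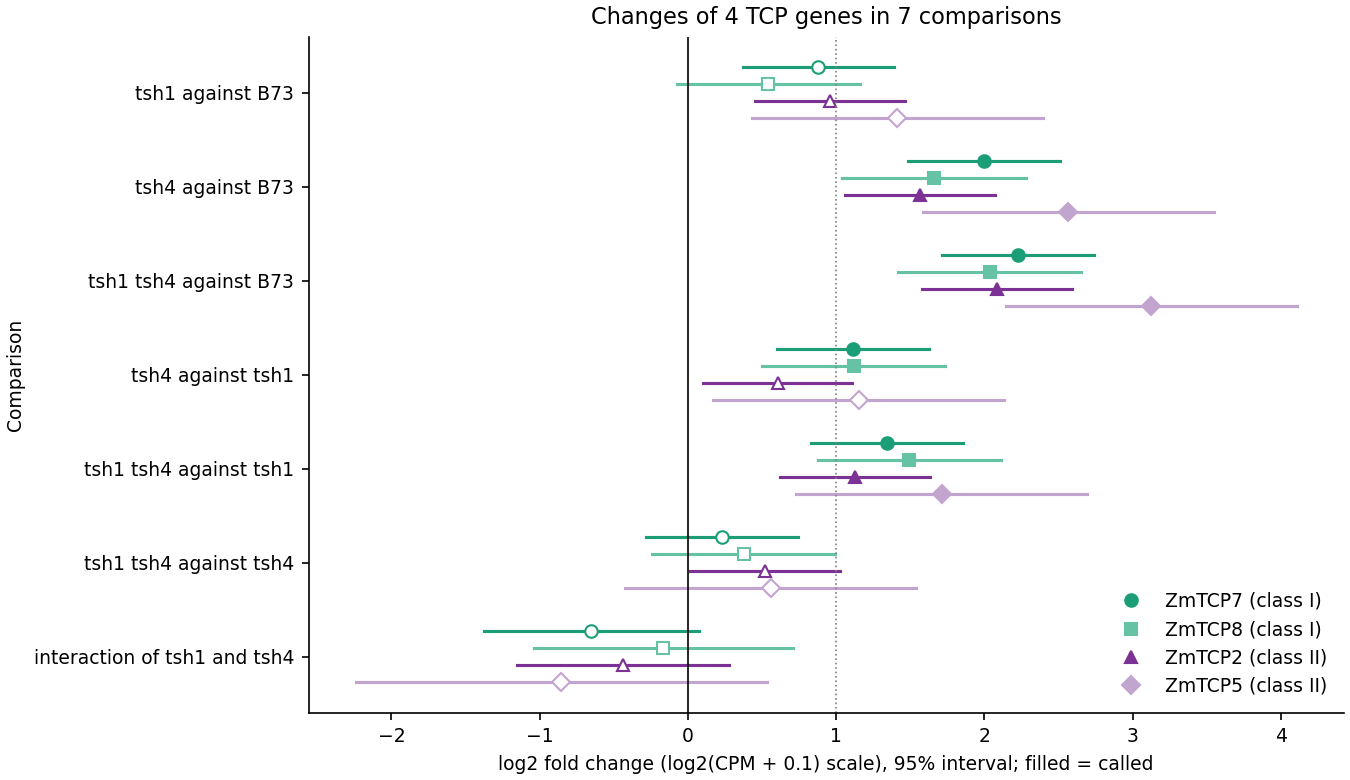
Log2 fold change on the log2(CPM + 0.1) scale with its 95% interval for the 4 *TCP* genes in 7 comparisons. Filled symbols passed the test and open symbols did not, the dotted line marks a log2 fold change of 1, and all 4 genes are filled in *tsh4* against B73, *tsh1 tsh4* against B73 and *tsh1 tsh4* against *tsh1*.

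The 4 genes were then compared by pattern, as the root mean square difference of log2(CPM + 0.1), centred on each gene's own mean, over the 12 libraries. Among 17271 genes with a mean of at least 1 CPM, *ZmTCP8* was the gene second most like *ZmTCP7*, and *ZmTCP7* the second most like *ZmTCP8*, at a difference of 0.284. The gene most like *ZmTCP7* was GRMZM2G009025, listed as the cellulase gene Cel21 (0.225), which was also the third most like *ZmTCP8* (0.295). Its means were 6.08, 10.9, 19.2 and 25.4 CPM in B73, *tsh1*, *tsh4* and *tsh1 tsh4*. The third most like *ZmTCP7* was bZIP84, GRMZM2G361611 (0.285), a gene of the basic leucine zipper transcription factors. The gene most like *ZmTCP8* was GRMZM2G061515, which has no name in the sources (0.258).

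The class II genes were less alike by this measure, and each was nearer to *ZmTCP7* than to the other. *ZmTCP2* was most like O10, GRMZM2G346263 (0.287), then *ZmNGA2*, GRMZM2G142999, of the NGA genes (0.303), and the *YABBY* gene *zyb14*, GRMZM2G005353 (0.304). The mean level of *ZmNGA2* was 1.11, 3.18, 3.63 and 5.84 CPM in B73, *tsh1*, *tsh4* and *tsh1 tsh4*, and that of *zyb14* was 41.0, 97.1, 132 and 199 CPM. *ZmTCP7* was in place 20 by likeness to *ZmTCP2* and *ZmTCP2* in place 22 by likeness to *ZmTCP7*, at a difference of 0.375. *ZmTCP5* was in place 5867 by likeness to *ZmTCP2*, at a difference of 0.814, while by likeness to *ZmTCP5*, which has few near neighbours, *ZmTCP2* was in place 82 and *ZmTCP7* in place 14. The genes most like *ZmTCP5* were GRMZM2G138589 (0.521), HSF2, GRMZM2G088242 (0.529), and GRAS19, GRMZM2G172657 (0.531), all at a greater distance than the neighbours of the other 3 genes. Counting error is larger for *ZmTCP5*, whose coefficient of variation from counting alone was 30.9% in B73, than for *ZmTCP2* at 9.31%, and its part in these distances was not tested. Likeness is a description over 12 libraries that share the 4 genotypes.

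Other members of the family were not called. Of 7 *TCP* entries in the reference annotation with a maize identifier, 2 are *ZmTCP2* and *ZmTCP5* and 3 others were in the table, and none of these 3 was called in any of the 7 comparisons by limma, nor by edgeR or DESeq2. GRMZM2G092214 (TCP8 in the annotation) averaged 11.6 ± 1.27 CPM (SD, n = 3) in B73 and 12.9 ± 0.703 in *tsh1 tsh4*, a difference of 0.15 on the log2 scale (95% interval −0.19 to 0.50). GRMZM2G445944 (TCP4) averaged 19.3 ± 1.19 CPM in B73 and 27.4 ± 4.66 in *tsh1 tsh4*, at 0.49 (0.14 to 0.85, adjusted p = 0.0961, limma). GRMZM2G093895 (TCP12) averaged 146 ± 9.82 CPM in B73 and 102 ± 15.6 in *tsh1 tsh4*, at −0.53 (−0.90 to −0.15, adjusted p = 0.0927, limma). Of these 3, the double mutant was above B73 in the second and below it in the third without overlap, and overlapped it in the first. Of all genes, 10.4% had every double-mutant library above every B73 library. The share with every library below is not given. Before adjustment, 2 of the 3 had a limma p under 0.05 in *tsh1 tsh4* against B73 (0.00993 for TCP4 and 0.00941 for TCP12), 1 in *tsh4* and 0 in *tsh1*, beside 18.4%, 15.3% and 9.3% of all genes, and the family was covered only in part.

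A further entry, AC233950.1_FG002, was on the list examined but has no annotation in the sources used here and is given by its identifier alone. Its level was 229, 333 and 296 CPM in B73 and 119 to 214 CPM in the 9 mutant libraries, all below B73. The share of all genes with such a gap is not given, so how unusual it is cannot be said. Against B73 the log2 differences were −0.90 for *tsh1*, −0.76 for *tsh4* and −0.87 for the double mutant (adjusted p = 0.0675, 0.0713 and 0.0238, limma). All were too small in size for a call, and those of *tsh1* and *tsh4* missed the adjusted p threshold as well.

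The genes that the study named beside the class II genes, or that are known from Arabidopsis to act with or after them, moved in both directions. The study named all 6 as up- or down-regulated on these same libraries, so their directions restate that choice too. In *tsh4* against B73, 4 of 6 were called higher and 2 lower, beside 2.04% and 1.77% of all genes, which for a list chosen in this way is no evidence about it. The NGA genes, partners of class II proteins in Arabidopsis leaves, rose: *ZmNGA2* by 1.61 (adjusted p = 0.000998, limma) and *ZmNGA3* by 2.10 (adjusted p = 0.00163). The *GROWTH-REGULATING FACTOR* genes, which promote cell proliferation, rose as well, *ZmGRF3* by 1.43 and *ZmGRF5* by 1.05. *ZmLOX2*, named for a lipoxygenase of jasmonate synthesis whose gene is a target of class II TCPs in Arabidopsis, fell by 1.44, and the boundary gene *ZmCUC3* fell by 1.19. In *tsh1 tsh4* against B73, where 2.69% of all genes were called higher and 3.15% lower, 3 of 6 were called higher, *ZmNGA2* at 2.25, *ZmNGA3* at 1.93 and *ZmGRF3* at 1.02, and *ZmLOX2* was called lower at −1.87. *ZmGRF5* at 0.95 and *ZmCUC3* at −0.99 missed only the fold threshold.

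In *tsh1* against B73, *ZmNGA2* was the 1 gene of the 6 called (1.44, adjusted p = 0.00686, limma). Of all genes 0.441% were called higher there, and the 6 had been named on these same libraries. No *TCP* gene was called, but *ZmTCP5* differed by 1.41 and *ZmTCP2* by 0.96. The intervals of the *TCP* genes overlap that of *ZmNGA2* (0.89 to 1.99), and whether they differ from it was not tested. The libraries of *ZmNGA2* lay at 0.98 to 1.2 CPM in B73 and at 2.93 to 3.51 CPM in *tsh1*. *ZmNGA3* differed by 0.96 (adjusted p = 0.320) and *ZmLOX2* by −1.16 (adjusted p = 0.0687). *ZmGRF3* and *ZmGRF5* differed by 0.30 and 0.15, with intervals that held 0.

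The cell cycle genes examined beside class I were 6 cyclin and PCNA genes found by name. In *tsh1 tsh4* against B73, 1 of 6 was called higher, beside 2.69% of all genes: *cycD1* (GRMZM2G006721), a D-type cyclin of the step from growth into DNA replication, which went from 28.2 ± 8.70 CPM (SD, n = 3) in B73 to 63.8 ± 12.4, higher by 1.2 on the log2 scale (SE 0.21, adjusted p = 0.00109, limma). None was called in *tsh1* or *tsh4* by limma, edgeR or DESeq2. Before adjustment limma gave a p under 0.05 for 4 of 6 in *tsh1* and 4 of 6 in *tsh4*, beside 9.3% and 15.3% of all genes. The medians of the 6 genes were 0.51, 0.52 and 0.64 in *tsh1*, *tsh4* and *tsh1 tsh4*, against 0.92, 1.83 and 2.16 for the *TCP* genes. The 2 genes listed as PCNA and pcna2 differed by 0.79 and 0.49 in the double mutant, and neither was called. There PCNA (adjusted p = 0.00904, limma) and *cycD4*, at 0.98 (adjusted p = 0.00307), missed only the fold threshold. In *tsh4* the same held for *cycD1* at 0.895 (adjusted p = 0.016, limma) and *cycD4* at 0.94 (adjusted p = 0.00626). In contrast, *cycD2* differed by −0.05, −0.24 and −0.15 in *tsh1*, *tsh4* and *tsh1 tsh4*. The gene listed as cyclin-A1 differed by 0.38, 0.51 and 0.20, and neither was called. By adjusted p alone, 3 of 6 passed in the double mutant, 2 of 6 in *tsh4* and 0 of 6 in *tsh1*. The share of all genes for this looser rule is not given, so these counts do not show whether the 6 genes stand out from other genes.

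**Figure D4:**
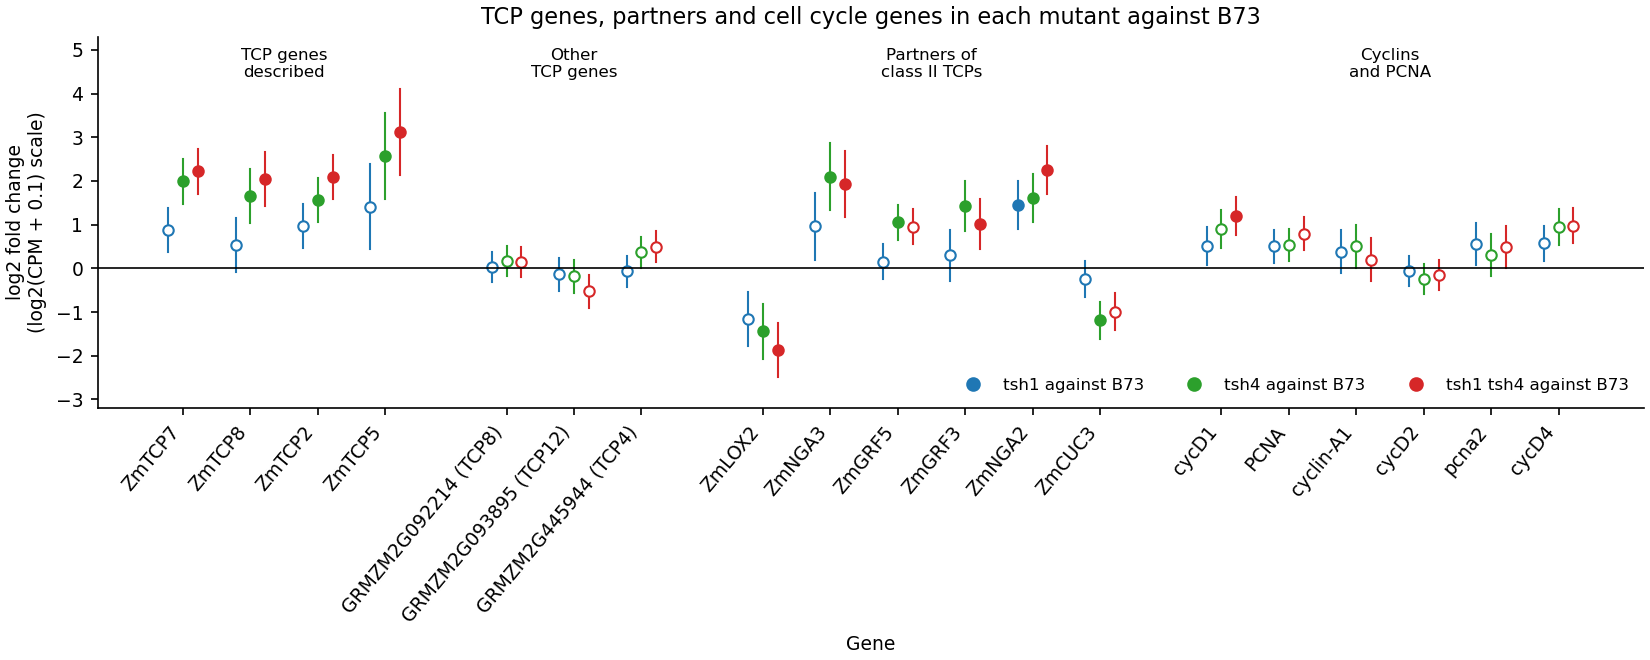
Log2 fold change on the log2(CPM + 0.1) scale with its 95% interval in *tsh1*, *tsh4* and *tsh1 tsh4* against B73, for the 4 *TCP* genes, 3 other *TCP* genes, 6 genes tied to class II and 6 cyclin and PCNA genes. Filled points passed the test and open points did not; the 3 other *TCP* genes lie between −0.53 and 0.49 with no filled point.

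Some markers of neighbouring tissue were called lower in *tsh4* and *tsh1 tsh4* than in B73, and none was called in *tsh1*. Of the 3 boundary genes, 2 were called lower in *tsh4* against B73, *baf1* and *ZmCUC3*, each at −1.19. In *tsh1 tsh4* 2 were called lower, *baf1* at −1.95 and *ba1* at −1.49. Of all genes, 1.77% were called lower in *tsh4* and 3.15% in *tsh1 tsh4*. The study named all 3 boundary genes as down-regulated on these libraries, so their calls restate that choice. Of the 3 *KNOX* genes, *gnarley1* alone was called lower, at −1.63 in *tsh4* and −1.10 in *tsh1 tsh4*. The meristem marker *kn1* was not called, at −0.42 for *tsh1*, −0.70 for *tsh4* and −0.10 for the double mutant (adjusted p = 0.798, 0.258 and 0.919, limma). The summed boundary level did not overlap between B73 and any mutant. Taken singly, *ZmCUC3* overlapped B73 in *tsh1*, and *ba1* overlapped it in *tsh4*. The summed *KNOX* level overlapped that of B73 in *tsh1* and lay below it in *tsh4* and *tsh1 tsh4*. In *tsh1 tsh4* the gap was narrow, at most 421 CPM against at least 425 in B73, and *kn1* alone overlapped B73 there. No share over all genes is given for such sums. The bract marker *zyb15* was not called, at 0.38, 0.25 and 0.30 in *tsh1*, *tsh4* and *tsh1 tsh4*. Whether the makeup of the captured tissue had a part in the *TCP* values was not tested.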

How the data were processed

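Laser-microdissected ear bract primordia of 4 genotypes were sequenced, 3 libraries each. Per the labels and the study's methods, the authors trimmed reads with Trimmomatic 0.36, mapped them to B73 RefGen_v3 with STAR 2.6.0a and counted them per gene with featureCounts, whose strand setting is not stated, so antisense or overlapping transcripts cannot be separated. They kept genes above 0.25 CPM in at least 3 libraries and normalized with edgeR 3.22.5. The deposited signal values are these counts as CPM, scaled by TMM factors. For each library all values were whole multiples of the value of 1 read within 0.0006 CPM (100% of values), which gave reads back.

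limma 3.58.1 (R 4.3.3) was fitted to log2(CPM + 0.1) of all 12 libraries and 20168 genes with an intensity trend. Such fold changes understate the change of low genes. Calls required a p of 0.05 or less after Benjamini-Hochberg adjustment, together with a log2 fold change of 1 or more in size, or the adjusted p alone for the interaction. P-values measure the spread between these libraries. Alternatives were pseudocounts of 0.01 and 1, a minimum mean of 1 CPM, a fit of the compared genotypes alone, no trend, equal column totals, a replicate block, edgeR 4.0.16 (TMM and quasi-likelihood test) and DESeq2 1.42.0 on the recovered reads, and leaving out each library. The procedure was tested on simulated data.

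The 4 genes were described in full. Other *TCP* genes, cyclins and PCNA were found by symbol or synonym in the NCBI table of Zm-B73-REFERENCE-NAM-5.0, which matched 14381 of the 20168 identifiers (71.3%). It holds no gene descriptions, so genes of these families without such a symbol were not counted. Other *TCP* genes and cell cycle genes were to be named where called, and for each gene the 3 most similar genes. The 3 uncalled *TCP* genes, PCNA, pcna2, *cycD4*, *cycD2* and cyclin-A1 were added after their values were seen. A planned marker is not reported here. The genes, lists and tests were chosen with earlier results of these data known. No coordinates or sequences are given, since no annotation of the build used was read.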

Additional observations from a re-analysis of the deposited data

How the results depend on the processing

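The counts of called *TCP* genes in *tsh4* and in *tsh1 tsh4* against B73 were 4 of 4 under every alternative, and those in *tsh1 tsh4* against *tsh4* and in the interaction were 0, except that restricting the fit to the genotypes compared was not possible for the interaction, which holds all 4 genotypes. In *tsh1* against B73 the count of 0 became 2 with DESeq2 and ran from 0 to 1 when a library was left out. In *tsh4* against *tsh1* the count of 2 became 1 with a pseudocount of 1 and 1 with the minimum mean of 1 CPM, and ran from 0 to 3 when a library was left out, 0 without replicate 3 of *tsh1* or of *tsh4*. In *tsh1 tsh4* against *tsh1* the count of 4 became 2 with a pseudocount of 1, where *ZmTCP2* and *ZmTCP5* fell below the fold threshold at 0.95 and 0.92, and 3 with a pseudocount of 0.01, the minimum mean, the compared genotypes alone, no trend, the replicate block and edgeR. It stayed at 4 with equal totals and DESeq2, and was 3 to 4 without a library. Of 584 values of single genes under the alternatives, 549 kept their direction and call, 28 lost the call, 4 gained it and 3 changed sign: *ZmTCP8* in the interaction, at 0.019 with a pseudocount of 1 and from −0.475 to 0.125 when a library was left out (0.125 without replicate 3 of B73), and *ZmTCP7* in *tsh1 tsh4* against *tsh4*, from −0.059 to 0.498 when a library was left out (−0.059 without replicate 1 of *tsh1 tsh4*). The cause was not tested.

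Whether libraries with the same replicate number share a batch was not settled. Deviations from the genotype means correlated above 0.1 in 10 of 18 same-numbered pairs (range −0.353 to 0.649, median 0.104). They did so in 12 of 36 others (median −0.012). Such deviations cancel within each genotype, which constrains these correlations, so they cannot decide it. With the replicate block the count in *tsh1 tsh4* against *tsh1* was 3, since *ZmTCP5* had an adjusted p of 0.1 (limma), and the block changed no other call on the 4 genes.

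Counts over all genes depended more on the settings. Genes called higher went from 89 to 56 in *tsh1* against B73, 411 to 220 in *tsh4* and 543 to 293 in *tsh1 tsh4* with a pseudocount of 1, from 453 to 244 in *tsh4* against *tsh1* and from 424 to 228 in *tsh1 tsh4* against *tsh1*. Genes called lower against B73 went from 357 to 194 in *tsh4* and 635 to 357 in *tsh1 tsh4*. With the minimum mean, which tests fewer genes, these were 349 (higher in *tsh1 tsh4*), 271 (higher in *tsh1 tsh4* against *tsh1*), 34 in place of 71 (higher in *tsh1 tsh4* against *tsh4*), and 233 and 414 (lower in *tsh4* and *tsh1 tsh4*). DESeq2 gave 144 higher in *tsh1* against B73, 110 higher in *tsh1 tsh4* against *tsh4*, and 157 in place of 58 interactions. Without a library, genes called higher in *tsh1 tsh4* against *tsh4* ran from 36 to 75, interactions from 34 to 84, and genes called higher in *tsh4* against *tsh1* from 279 to 500. The edgeR test on the recovered reads called 96, 422 and 543 genes higher in *tsh1*, *tsh4* and *tsh1 tsh4* against B73.

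Depth limits *ZmTCP5* most: with 8 to 14 reads in the B73 libraries and 9 in replicate 3 of *tsh1*, its fold changes are imprecise. The lists cover only genes with a symbol in the reference table, and differences below 2-fold could not be called by the rule used.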
